A study of Mus musculus with 12 samples.

Results

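ATP-binding cassette (ABC) transporter genes were taken as every gene symbol in the deposited tables that is built from Abc, a subfamily letter from a to g, a number and at most 1 further letter. The rule uses no measured value, though members were chosen with earlier results of these data known, and it found 50 of the 24391 symbols. Of these, 48 were above 0 in at least 1 library, and Abca16 and Abcb5 were listed at 0 in all 12. Levels are FPKM, reads scaled to gene length and library depth, so levels of different genes can be set side by side. A gene was tested where it reached 1 FPKM in at least 4 libraries, which 28 of the 50 did, and the 20 that were above 0 and below this filter are given by level.

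Messenger RNA was sequenced from scraped colon epithelial cells of C57BL/6 mice at an age of 18 weeks, in 3 groups of 4 libraries. Control mice are labelled only as control, the AOM/DSS group was given azoxymethane (AOM, a colon carcinogen) and dextran sulfate sodium (DSS, which inflames the colon), and the curcumin group was given AOM, DSS and curcumin, a polyphenol of turmeric. Doses and timing are not given in the sources used here, and no group with curcumin alone was analysed, so curcumin can be compared only on top of AOM and DSS. The proximal segment and tumours of the right colon were taken away before scraping, per the labels' protocols, and nothing in the labels ties a library to an animal of its own, so p-values measure the spread between libraries, which may be technical.

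Reads recovered from the FPKM steps numbered 5567988 to 15968416 per library. All 7 epithelial markers looked at (among them Epcam, Cdh1 and Cdx2) were above 0 in every library, with summed levels of 5210 to 7820 FPKM in control, 4790 to 7580 in AOM/DSS and 4890 to 8680 in curcumin. The libraries fell into 2 classes by base composition: 5 gave higher values to GC-rich genes (control replicate 0, AOM/DSS 0 and 1, curcumin 0 and 1) and the other 7 to AT-rich genes. Fewer cells of a type and less RNA per cell cannot be told apart in such bulk samples.

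ABC proteins bind and split ATP in a pair of conserved nucleotide-binding domains, and most couple this to moving a molecule across a membrane. In the gut, exporters of the B, C and G subfamilies pump drugs, toxins and their conjugates out of epithelial cells, and A and G members move sterols and phospholipids. Other members sit in mitochondria, peroxisomes and lysosomes, and the E and F subfamilies have no membrane part and act on ribosomes. P-glycoprotein, the apical multidrug pump, is made in mice from a pair of neighbouring genes, Abcb1a and Abcb1b.

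The promoters of these neighbours are shown because they are the members that rose together, and the promoter of Abcg5 because it overlaps that of its transport partner Abcg8. The sequences are RefSeq windows of GRCm38.p6 from 250 bases before to 50 after the gene start, matched by symbol for 38 of the 50 members, while the submitters' notes name mm9. Abcb1a lies on the plus strand at chr5:8566841-8567140, Abcb1b on the plus strand at chr5:8797897-8798196 and Abcg5 on the minus strand at chr17:84682962-84683261. Capitals in the first pair mark CCAAT and GGGCGG on either strand, and in Abcg5 the 209 of 300 bases that it shares with the window of Abcg8.
Abcb1a: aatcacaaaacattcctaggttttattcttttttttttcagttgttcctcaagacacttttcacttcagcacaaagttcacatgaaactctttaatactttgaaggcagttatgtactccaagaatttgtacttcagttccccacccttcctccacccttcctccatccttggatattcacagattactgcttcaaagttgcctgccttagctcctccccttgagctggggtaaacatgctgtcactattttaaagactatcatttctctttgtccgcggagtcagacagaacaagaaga
Abcb1b: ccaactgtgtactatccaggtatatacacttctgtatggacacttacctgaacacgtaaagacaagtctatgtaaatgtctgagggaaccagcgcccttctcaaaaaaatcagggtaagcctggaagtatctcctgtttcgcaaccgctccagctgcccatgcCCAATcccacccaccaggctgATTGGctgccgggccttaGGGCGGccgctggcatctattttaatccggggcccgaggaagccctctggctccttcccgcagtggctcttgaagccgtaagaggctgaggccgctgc
Abcg5: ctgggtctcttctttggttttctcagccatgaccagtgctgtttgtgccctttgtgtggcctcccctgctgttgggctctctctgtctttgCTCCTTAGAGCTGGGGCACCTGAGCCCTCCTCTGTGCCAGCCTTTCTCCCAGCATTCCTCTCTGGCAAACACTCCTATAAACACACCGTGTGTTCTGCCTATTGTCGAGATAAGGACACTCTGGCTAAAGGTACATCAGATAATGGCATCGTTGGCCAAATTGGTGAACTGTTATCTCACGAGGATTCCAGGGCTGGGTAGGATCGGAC

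The pair differ in these letters. The Abcb1a window has a GC content of 40.3% and holds neither motif, and the Abcb1b window has 55% and holds CCAAT at 2 places and GGGCGG at 1. Of all 32851 windows in the table, 37.4% hold CCAAT and 35.7% hold GGGCGG, and of the members with a window 39.5% and 47.4% do. The starts of Abcg5 and Abcg8 lie 110 bases apart on opposite strands, and the genes share 82 exon bases in GENCODE M21, so reads of the overlap cannot be assigned without strand, whose setting is not stated.

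Levels within the family spanned a wide range. Abcb1a was the highest of the 50, with a mean of 165 FPKM over the 12 libraries. Behind it came Abcd3, a fatty acid transporter of peroxisomes (89.3), Abcc3, a basolateral exporter of conjugates (84.5), and Abcg2, the apical breast cancer resistance protein (51.4). Abcf1, a translation factor (48.5), and Abcb6, a porphyrin transporter (27.6), completed the top 6. Of the summed FPKM of all members, Abcb1a alone made up 20.7% to 31.2% in control libraries, 11.4% to 17.7% in AOM/DSS and 29.0% to 30.2% in curcumin. The AOM/DSS libraries all lay below the other 8 in this share.

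**Figure D1:**
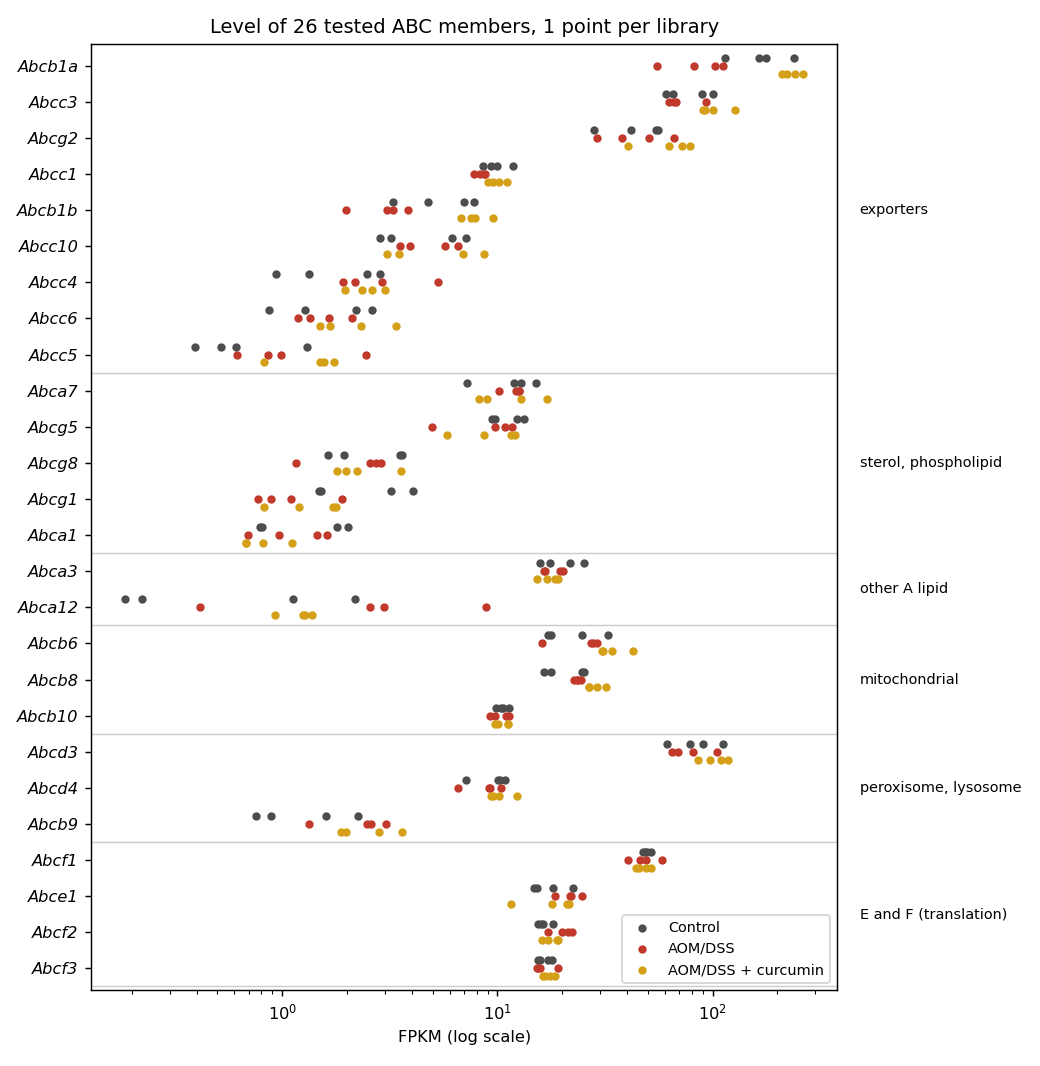
Level of 26 of the 28 tested members in each of the 12 libraries, in FPKM on a log scale, grouped by role and coloured by group, 1 point per library. Abcb1a is the highest member, its 4 AOM/DSS points lie at 55.4 to 112 FPKM, and its 4 curcumin points at 209.5 to 264.

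Between groups, 2 members passed the threshold, the P-glycoprotein pair in curcumin against AOM/DSS. Differences between groups are given on the log2 scale with their standard error (SE). By limma's test on log2(FPKM + 1), with p-values adjusted by Benjamini-Hochberg over all 12052 genes tested, Abcb1a and Abcb1b rose in curcumin against AOM/DSS, 2 of 28 members, where 0.73% of all tested genes rose. No member fell in that comparison, where 0.348% of all genes did, and limma's voom on recovered reads also called 0 lower. Against control, 0 of 28 members passed in AOM/DSS (background 1.27%) and 0 in curcumin (background 0.141%), by limma and by voom. At an unadjusted p below 0.05 there were 6 members with AOM/DSS set against control (background 13.5%), 3 for curcumin against AOM/DSS (background 14.5%) and 3 for curcumin against control (background 12.2%).

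More members had separated libraries than passed the test. Libraries of curcumin lay wholly above those of AOM/DSS for 5 members, Abcb1a, Abcb1b, Abcb6, Abcb8 and Abcc1 (17.9%, against 4.95% of all tested genes), and wholly below for 0 (background 4.27%). AOM/DSS lay wholly below control for Abcb1a alone (3.57%, background 3.63%) and above it for 0 (background 2.38%). Curcumin lay wholly above control for Abcb8 alone (3.57%, background 3.72%) and below it for 0 (background 4.55%). The median log2 fold change of the 28 members was -0.05 in AOM/DSS minus control, 0.07 in curcumin minus AOM/DSS and 0.11 in curcumin minus control. Over all genes tested these medians were 0.02, -0.01 and 0.01. By voom, the medians in AOM/DSS minus control were 0.0038 for the members and 0.0669 for all genes tested. The comparisons share libraries, so their values are given side by side and not as support for each other.

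**Figure D2:**
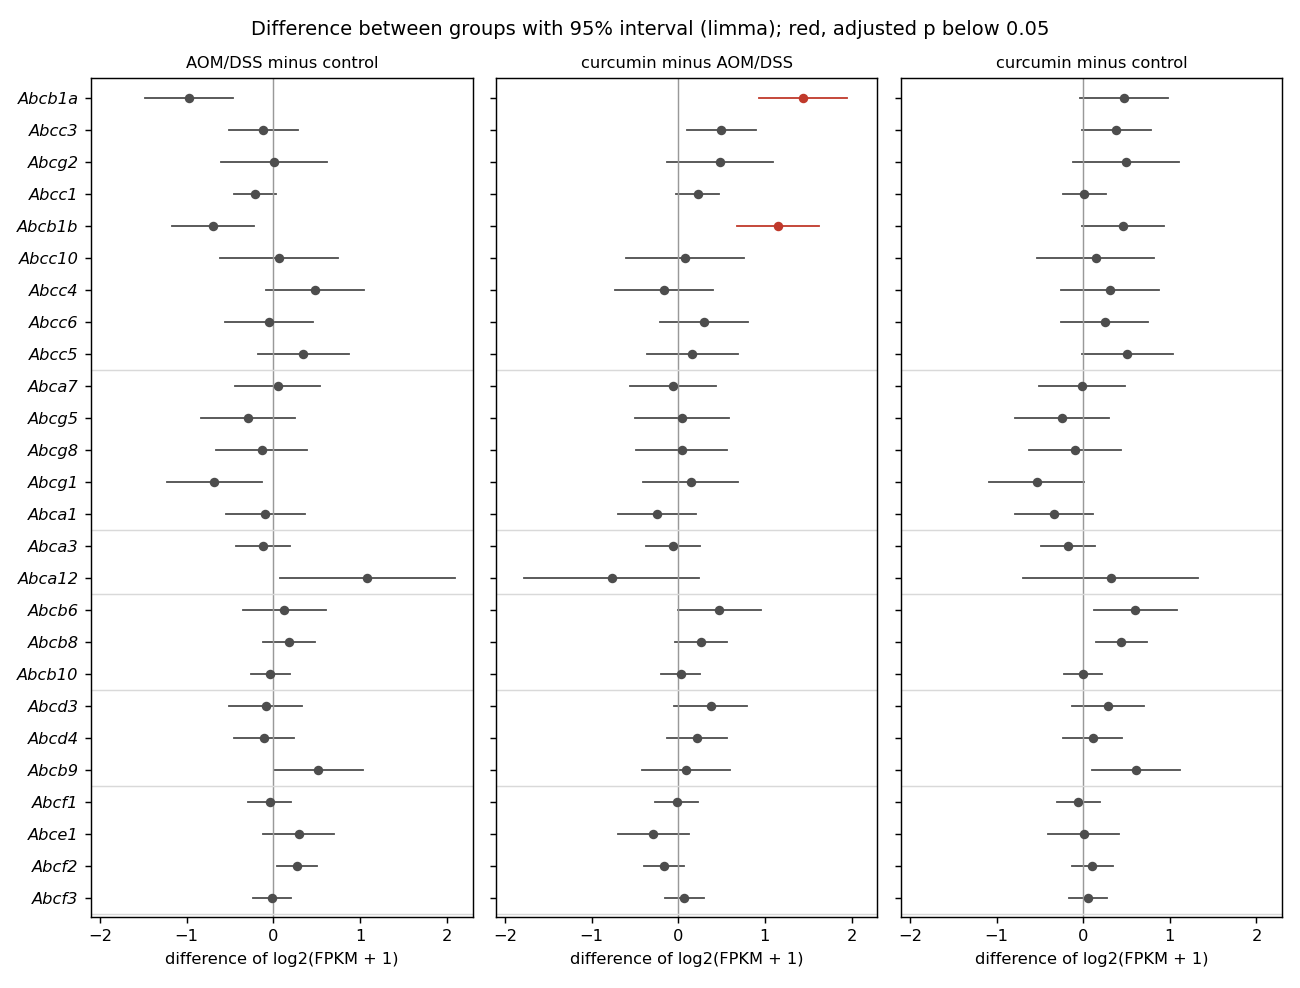
Difference of log2(FPKM + 1) between groups for the same 26 tested members in the 3 comparisons, as points with the 95% interval of limma's test, grouped by role as in the plot of levels. Red marks an adjusted p below 0.05, which holds for Abcb1a (1.44) and Abcb1b (1.15) in curcumin minus AOM/DSS.

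Among the exporters, the P-glycoprotein genes were lowest in AOM/DSS and highest in curcumin. Abcb1a was at 178, 165, 115 and 240.0 FPKM in control replicates 0 to 3, 81.6, 55.4, 112 and 103 in AOM/DSS and 264, 209.5, 242 and 221 in curcumin. The 4 AOM/DSS libraries were the lowest 4 of the 12, and the 4 curcumin libraries overlapped control only at control replicate 3. Curcumin exceeded AOM/DSS at 234 ± 24 against 88 ± 25.2 FPKM (mean ± SD, n = 4 each), and Abcb1a rose by limma (1.44 ± 0.23 SE, adjusted p = 0.0126). The difference of AOM/DSS from 174 ± 51.6 in control did not pass (-0.98 ± 0.23 SE, adjusted p = 0.0633), with a 95% interval of -1.49 to -0.47 and nearest libraries of 115 and 112 FPKM. Under 27 alternatives this comparison passed in 3 and did not pass in 24. It passed without control replicate 2 (-1.16, adjusted p = 0.0311), without AOM/DSS replicate 2 (-1.11, adjusted p = 0.0469) and with library weights (-1.08, adjusted p = 0.0246). It was weaker without control replicate 3 (-0.81, adjusted p = 0.209) and with only the groups compared (-0.98, adjusted p = 0.169). Curcumin against control did not pass (0.47 ± 0.23 SE, adjusted p = 0.448).

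Abcb1b ran in the same order at a far lower level. It was at 6.98, 4.76, 3.29 and 7.82 FPKM in control replicates 0 to 3, 3.28, 1.99, 3.83 and 3.07 in AOM/DSS and 9.54, 7.87, 7.51 and 6.74 in curcumin. No curcumin library was as low as any AOM/DSS library, while control replicate 2 fell among the AOM/DSS values. Abcb1b rose from 3.04 ± 0.773 FPKM in AOM/DSS to 7.92 ± 1.18 in curcumin (1.15 ± 0.22 SE, adjusted p = 0.0245, limma), and did not pass for AOM/DSS against control (-0.70 ± 0.22 SE, adjusted p = 0.162) or curcumin against control (0.46 ± 0.22 SE, adjusted p = 0.428). The rise lost its call without AOM/DSS replicate 3 (adjusted p = 0.0503) or curcumin replicate 0, 1 or 2 (adjusted p = 0.0853, 0.0689 and 0.0698). The fold change stayed between 1.02 and 1.25 over the libraries left out in turn, of which those of control cannot alter it. The rise also lost the call with no filter (1.15, adjusted p = 0.0561).

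The paralogs share sequence, so every value of Abcb1b is uncertain. Its FPKM was 2.87% to 4.03% of that of Abcb1a over the 12 libraries, with a mean of 3.23% ± 0.492 (SD, n = 4) in control, 3.50% ± 0.430 in AOM/DSS and 3.38% ± 0.356 in curcumin, and the ranges of the 3 groups overlapped. Of the 50-base stretches of Abcb1b's protein-coding transcripts, 17.8% also occur in Abcb1a, and of the 100-base stretches 8.52%. Abcb1a rested on 2394 to 19411 reads per library and Abcb1b on 75 to 526. How reads that match both were counted is not stated, and the part of Abcb1a reads in the value of Abcb1b was not tested. Abcb1a itself shares 10.1% of its exon bases with Gm42686 on the opposite strand.

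**Figure D3:**
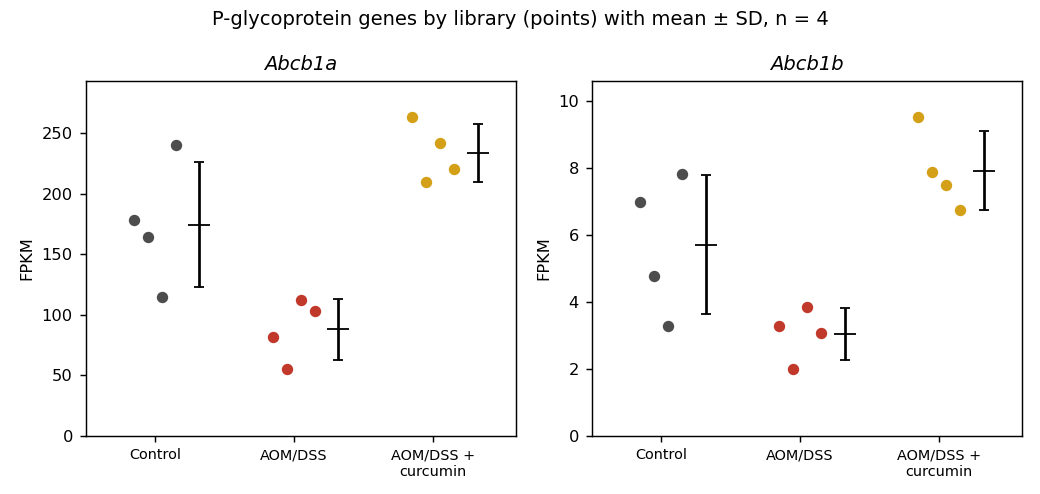
Abcb1a and Abcb1b in FPKM by group, 1 point per library in the order of replicates 0 to 3, with the mean and SD of the 4 libraries beside them. In both panels all 4 curcumin libraries lie above all 4 AOM/DSS libraries, the lowest curcumin value of Abcb1a being 209.5 and the highest AOM/DSS value 112.

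Surface colonocyte markers moved alongside P-glycoprotein. All 7 looked at were above 0 in every library, and their summed level was 4530 to 10300 FPKM in control, 3650 to 5500 in AOM/DSS and 6890 to 10200 in curcumin, with no overlap between the last pair of groups. Of the 7, 4 rose in curcumin against AOM/DSS (background 0.73%). These were Car2 and Car4, carbonic anhydrases, Slc26a3, a chloride/bicarbonate exchanger, and Aqp8, a water channel. In AOM/DSS against control 3 fell, Car2, Car4 and Slc26a3 (background 0.813%). The median log2 fold change of all 7 was 1.08 in curcumin minus AOM/DSS and -0.99 in AOM/DSS minus control. Per 1000 FPKM of these markers, Abcb1a stood at 39.3, 15.9, 20.1 and 33.6 FPKM in control, 20.6, 15.2, 21.3 and 18.7 in AOM/DSS and 26.0, 30.4, 33.7 and 30.4 in curcumin. On that scale the ratio of the mean in curcumin to that in AOM/DSS was 1.59, against 2.66 on FPKM itself. The lowest curcumin library was at 26.0 and the highest AOM/DSS library at 21.3, and control overlapped both groups. T and NK cell markers, from cells that also make P-glycoprotein, summed to 4.41 to 5.97 FPKM in control, 3.31 to 15.5 in AOM/DSS and 2.82 to 5.02 in curcumin, all 7 being above 0 in every library. Endothelial markers, from another such cell type, summed to 3.84 to 7.93, 2.06 to 5.29 and 4.08 to 5.37, with 4 of 6 above 0 in every library. The part of these cell types in the P-glycoprotein result was not tested.

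Within each class of base composition, with 2 libraries of AOM/DSS and 2 of curcumin, no member passed between these groups. Hardly any gene did: of 12052 tested, 8 passed in the GC-rich libraries and 1 in the AT-rich libraries. No member passed against control in the AT-rich class, where 4 genes did for AOM/DSS and 0 for curcumin. With so few genes passing, these fits cannot decide whether a member's call holds within a class. In the GC-rich libraries alone Abcb1a stood at 81.6 and 55.4 FPKM in AOM/DSS and 264 and 209.5 in curcumin, a difference of 1.79 (adjusted p = 0.0931) on the log2 scale. In the AT-rich libraries alone it stood at 112 and 103 against 242 and 221, a difference of 1.10 (adjusted p = 0.361). Abcb1b gave 1.43 (adjusted p = 0.135) and 0.87 (adjusted p = 0.456). For AOM/DSS against control, Abcb1a differed by -1.39 (adjusted p = 0.393) and -0.62 (adjusted p = 0.451), the GC-rich class holding 1 control.

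Of the other drug and conjugate pumps, none passed in any comparison. Abcc3 was at 65.6, 89.6, 60.7 and 101 FPKM in control replicates 0 to 3, 62.7, 66.1, 92.7 and 67.3 in AOM/DSS and 126, 89.8, 99.9 and 92.1 in curcumin. Its curcumin libraries were higher than those of AOM/DSS but for AOM/DSS replicate 2, and the difference did not pass (0.50 ± 0.18 SE, adjusted p = 0.227, interval 0.10 to 0.90). Abcg2, which shares many substrates with P-glycoprotein, was at 28, 55.6, 41.8 and 54.5 FPKM in control replicates 0 to 3, 37.9, 29, 66 and 50.4 in AOM/DSS and 78.9, 40.3, 62.8 and 71.9 in curcumin. All 3 groups overlapped, and neither curcumin against AOM/DSS (0.48 ± 0.28 SE, adjusted p = 0.467, interval -0.13 to 1.09) nor curcumin against control (0.49, adjusted p = 0.51) passed.

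Abcc1, an exporter of glutathione conjugates, was at 9.35, 9.92, 8.58 and 11.8 FPKM in control, 7.76, 8.7, 8.8 and 8.28 in AOM/DSS and 10.2, 9.0, 11.1 and 9.55 in curcumin. Its curcumin libraries cleared those of AOM/DSS by a narrow margin, 9.0 against 8.8 FPKM, and the difference did not pass (0.22 ± 0.11 SE, adjusted p = 0.394). The cyclic nucleotide exporters Abcc4 and Abcc5 ranged over 0.935 to 5.32 and 0.392 to 2.46 FPKM, each with its top value in AOM/DSS replicate 3, and Abcc10 (2.85 to 8.64) and Abcc6 (0.868 to 3.39) overlapped in every comparison. Of the 9 tested exporters, the mean was higher in curcumin than in AOM/DSS for 8 and than in control for 9, with 2 and 0 past the threshold. The counts higher in mean were 7 and 6 with library weights. They were 6 and 8 in the AT-rich libraries alone, and 8 and 8 with a common sum of FPKM. Medians were 0.30 and 0.38 on the log2 scale beside -0.01 and 0.01 over all genes. Against control, AOM/DSS was higher in mean for 4 of the 9, with 0 past the threshold. That count was 2 with library weights and 6 without control replicate 3.

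Abcc2, the apical partner of Abcc3 for conjugates, was low and varied widely. It was at 0.541, 0.183, 0.106 and 0.642 FPKM in control replicates 0 to 3, 0.0567, 0.0855, 0.178 and 2.06 in AOM/DSS and 0.793, 1.54, 1.06 and 0.715 in curcumin, from 3 to 166 reads per library. AOM/DSS replicate 3 was the highest of the 12 libraries, while the other 3 of its group lay at the level of control replicates 1 and 2 or lower, and all 4 curcumin libraries lay above all 4 controls. It missed the filter, and with no filter curcumin differed from control by 0.57 (adjusted p = 0.576, limma) and from AOM/DSS by 0.49 (adjusted p = 0.54). AOM/DSS replicate 3 also stood far above all other libraries for the bile salt carriers Slc51a (139 FPKM, the next library 10.7) and Slc10a2 (55.5, the next 13.3). For Slc51b it did not (107, against 108 in control replicate 1). What sets this library apart was not tested.

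**Figure D4:**
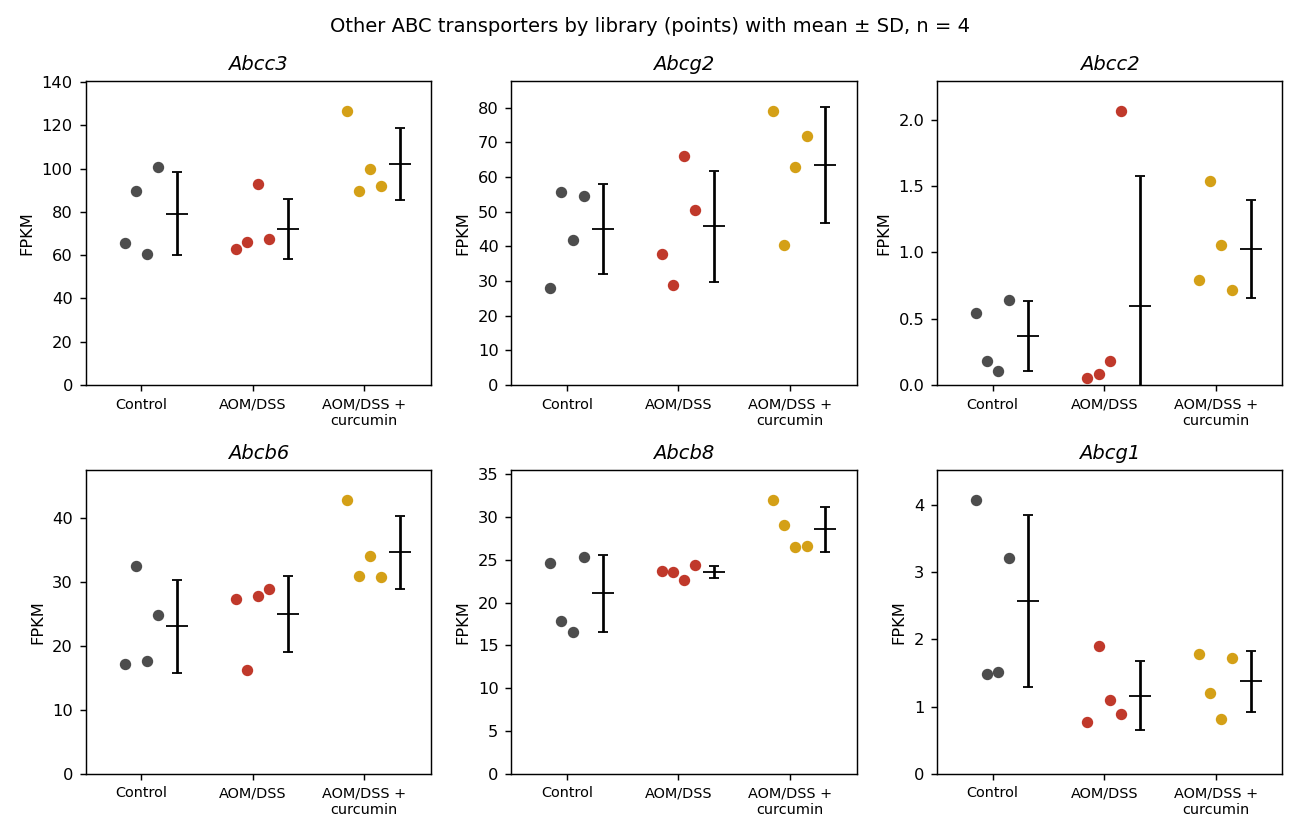
Abcc3, Abcg2, Abcc2, Abcb6, Abcb8 and Abcg1 in FPKM by group, 1 point per library in the order of replicates 0 to 3, with the mean and SD of 4 libraries (the SD of Abcc2 in AOM/DSS runs below 0 and is cut off there). Abcb6 and Abcb8 are higher in all curcumin than in all AOM/DSS libraries, Abcc3 and Abcg2 overlap, and 1 AOM/DSS library holds Abcc2 at 2.06.

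Of the sterol, phospholipid and bile salt transporters, 5 of 8 were tested and 0 passed in any comparison. The background was 1.27% for AOM/DSS against control, 0.73% higher and 0.348% lower for curcumin against AOM/DSS, and 0.141% for curcumin against control. At these shares, 0 calls in this or another role list cannot set its members apart from other genes. Median log2 differences were -0.14 in AOM/DSS minus control, 0.04 in curcumin minus AOM/DSS and -0.25 in curcumin minus control. Abcg1, which loads cholesterol onto lipoprotein particles and is a target of liver X receptors, was at 4.08, 1.49, 1.52 and 3.21 FPKM in control replicates 0 to 3, 0.771, 1.9, 1.09 and 0.886 in AOM/DSS and 1.78, 1.2, 0.821 and 1.72 in curcumin. Control replicates 0 and 3 were the highest libraries, and AOM/DSS replicate 1 overlapped control. The difference of AOM/DSS from control did not pass (-0.68 ± 0.25 SE, adjusted p = 0.25). Abca1, the other main cholesterol exporter to lipoproteins, was at 2.02, 0.806, 0.790 and 1.8 FPKM in control replicates 0 to 3, 0.963, 0.696, 1.44 and 1.61 in AOM/DSS and 0.812, 0.678, 0.677 and 1.12 in curcumin. Its groups overlapped throughout, and the interval for curcumin against control was -0.79 to 0.12.

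Abcg5 and Abcg8 form a heterodimer that returns plant sterols and cholesterol to the gut lumen. Abcg5 was at 13.3, 9.75, 9.48 and 12.3 FPKM in control replicates 0 to 3, 11.7, 9.73, 10.8 and 4.97 in AOM/DSS and 11.6, 12.1, 8.63 and 5.83 in curcumin. Abcg8 was at 3.53, 1.94, 1.63 and 3.61 FPKM in control replicates 0 to 3, 2.88, 2.55, 2.72 and 1.16 in AOM/DSS and 2.22, 3.58, 1.98 and 1.8 in curcumin. AOM/DSS replicate 3 was the lowest library for both, and the groups overlapped in each comparison. The intervals of AOM/DSS minus control were -0.83 to 0.25 for Abcg5 and -0.66 to 0.39 for Abcg8, and those of curcumin minus AOM/DSS -0.50 to 0.58 and -0.49 to 0.57. Abca7, a phospholipid transporter, ranged over 7.22 to 17.1 FPKM, and its group means were 11.8, 11.9 and 11.8.

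Of the other A subfamily lipid transporters, 2 of 14 were tested and 0 passed (background as for the sterol list). Abca12, which carries glucosylceramides in skin, was at 0.187, 2.18, 0.224 and 1.12 FPKM in control replicates 0 to 3, 2.99, 0.415, 2.56 and 8.84 in AOM/DSS and 1.28, 0.922, 1.37 and 1.25 in curcumin. AOM/DSS replicate 3 was the highest library and AOM/DSS replicate 1 lay among the controls. The difference of AOM/DSS from control did not pass (1.08 ± 0.47 SE, adjusted p = 0.33). Abca3, a phospholipid transporter of lamellar bodies, was at 21.8, 17.6, 15.7 and 25.1 FPKM in control, 19.5, 16.6, 20.1 and 16.5 in AOM/DSS and 18.5, 17, 19.1 and 15.3 in curcumin, all groups overlapping. Its counting is uncertain, since 9.75% of its exon bases lie across from D330041H03Rik.

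Mitochondrial members gave 0 calls of 4 (background as for the sterol list). Abcb6 and Abcb8 had libraries wholly higher in curcumin than in AOM/DSS (4.95% of all tested genes). Abcb8 also did against control (3.72% of all tested genes). Abcb6, which moves porphyrins, was at 17.2, 32.6, 17.7 and 24.8 FPKM in control replicates 0 to 3, 27.3, 16.1, 27.7 and 28.9 in AOM/DSS and 42.8, 30.9, 34.1 and 30.7 in curcumin. Curcumin lay above AOM/DSS in every library, though AOM/DSS replicate 1 was far below the rest of its group, and neither that difference (0.47 ± 0.22 SE, adjusted p = 0.35) nor the one from control (0.60 ± 0.22 SE, adjusted p = 0.301) passed. Abcb6 shares 55.2% of its exon bases with Gm29253 on the same strand in GENCODE M21, so its value is uncertain if that gene was counted. Red blood cell markers, of cells that also use Abcb6 and Abcb10, summed to 76.5 to 414 FPKM in control, 21.0 to 412 in AOM/DSS and 33.5 to 48.0 in curcumin, all 6 above 0 in every library, and their part in these values was not tested.

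Abcb8, linked to mitochondrial iron export, was at 24.7, 17.8, 16.5 and 25.3 FPKM in control replicates 0 to 3, 23.7, 23.6, 22.7 and 24.3 in AOM/DSS and 32, 29.1, 26.5 and 26.6 in curcumin. Curcumin was above both other groups in every library. The differences did not pass (curcumin minus control: 0.44 ± 0.14 SE, adjusted p = 0.217, and curcumin minus AOM/DSS: 0.26 ± 0.14 SE, adjusted p = 0.412). Abcb10, a haem biosynthesis partner, was at 9.23 to 11.3 FPKM over the 12 libraries.

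Peroxisomal and lysosomal members gave 0 calls of 4 tested (background as for the sterol list). Abcd3, which brings branched and long-chain acyl groups into peroxisomes, was at 61.2, 112, 90.5 and 78.1 FPKM in control replicates 0 to 3, 64.8, 68.8, 105 and 81 in AOM/DSS and 97.5, 85.2, 118 and 109.5 in curcumin. Groups overlapped, and the interval of curcumin minus AOM/DSS was -0.05 to 0.79. Abcd4, needed for release of cobalamin from lysosomes, ranged over 6.53 to 12.4 FPKM. Abcb9, a lysosomal peptide transporter, was at 2.24, 0.886, 0.753 and 1.59 FPKM in control replicates 0 to 3, 3.03, 2.59, 1.33 and 2.49 in AOM/DSS and 3.59, 2.82, 1.97 and 1.88 in curcumin. Its control replicates 1 and 2 were the lowest libraries, and it did not pass in AOM/DSS (0.52 ± 0.24 SE, adjusted p = 0.358) or curcumin against control (0.61 ± 0.24 SE, adjusted p = 0.33).

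The E and F members, which work on ribosomes, gave 0 calls of 4 in each comparison (background as for the sterol list). Abce1, which splits ribosomes for reuse, was at 15.3, 18.1, 22.5 and 14.8 FPKM in control replicates 0 to 3, 21.9, 21.7, 18.5 and 24.6 in AOM/DSS and 11.5, 17.9, 21.1 and 21.5 in curcumin. The lowest library was curcumin replicate 0 and the highest AOM/DSS replicate 3. Abcf1, a partner of initiation factor eIF2, was at 52, 47.7, 48.7 and 49.7 FPKM in control, 48.9, 58.1, 40.6 and 46.1 in AOM/DSS and 51.5, 49.1, 45.3 and 44.3 in curcumin. Its 95% intervals were -0.29 to 0.21, -0.27 to 0.23 and -0.31 to 0.19 in the 3 comparisons. Abcf2 was at 15.9, 15.5, 18.2 and 16.3 FPKM in control and 21.4, 19.9, 17.2 and 22.1 in AOM/DSS, which overlapped at 1 AOM/DSS library and did not pass (0.27 ± 0.11 SE, adjusted p = 0.287), and at 16.2, 17.1, 19.1 and 18.8 in curcumin. Abcf3 ranged over 15.4 to 19 FPKM.

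The 20 members below the filter had means under 1 FPKM. Abca2, a lipid transporter of endosomes, was the highest of them, at 0.735, 0.318, 0.400 and 0.539 FPKM in control, 1.18, 0.958, 0.811 and 0.922 in AOM/DSS and 0.742, 1.09, 0.723 and 0.575 in curcumin. Its AOM/DSS libraries all lay above control, on 13 to 111 reads over the 12 libraries, and with no filter the difference was 0.40 (adjusted p = 0.157, limma). Abcb4, the phosphatidylcholine transporter of bile, lies beside Abcb1b and was at 0.358, 0.0966, 0.194 and 0.434 FPKM in control, 0.200, 0.368, 0.150 and 0.164 in AOM/DSS and 0.944, 0.502, 0.335 and 0.340 in curcumin, on 2 to 36 reads. Its groups overlapped, and with no filter curcumin differed from AOM/DSS by 0.31 (adjusted p = 0.319, limma). Of its 50-base stretches 3.05% also occur in Abcb1a, so with so few reads its value is uncertain, and the part of Abcb1a reads in it was not tested. The potassium channel subunits Abcc8 and Abcc9 ranged over 0.114 to 0.365 and 0.0320 to 0.169 FPKM. The bile salt pump Abcb11 did not exceed 0.0821 FPKM, and the retinal transporter Abca4 was above 0 in 1 library only.

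Genes around the transporters were read from lists of 71 symbols, of which 67 were tested. In AOM/DSS, 0 rose and 3 fell relative to control (background 0.813% lower). In curcumin, 2 rose and 0 fell relative to AOM/DSS (background 0.73% higher and 0.348% lower), and 0 rose and 1 fell relative to control (background 0.0498% lower). Nr1i3, the constitutive androstane receptor, a xenobiotic sensor with ABC genes among its targets, was at 5.91, 6.27, 3.55 and 7.17 FPKM in control replicates 0 to 3, 3.17, 4.97, 3.21 and 1.66 in AOM/DSS and 10.9, 10.4, 9.34 and 7.71 in curcumin. Every curcumin library lay above every library of the other groups, and Nr1i3 rose against AOM/DSS (1.36 ± 0.23 SE, adjusted p = 0.0155), while the difference from control did not pass (0.68, adjusted p = 0.264). Nr1i2, the pregnane X receptor, was at 56.8 ± 7.43, 44.9 ± 4.44 and 50.8 ± 4.17 FPKM in the 3 groups (SD, n = 4) and passed in none (-0.33, adjusted p = 0.243 for AOM/DSS minus control, 0.18, adjusted p = 0.553 for curcumin minus AOM/DSS).

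Vdr, the vitamin D receptor, fell in AOM/DSS from 205 ± 13.7 to 115 ± 14.2 FPKM (-0.83 ± 0.11 SE, adjusted p = 0.00366) and stood at 152 ± 9.41 in curcumin (0.40, adjusted p = 0.119 against AOM/DSS). Nr1h3, the liver X receptor alpha, was at 18.7 ± 1.6, 13 ± 2.66 and 19.1 ± 1.25 FPKM, with -0.52, adjusted p = 0.0821 for AOM/DSS minus control and 0.54, adjusted p = 0.0748 for curcumin minus AOM/DSS. Mylip, a liver X receptor target that degrades the LDL receptor, fell in curcumin against control, from 13.1 ± 1.58 to 7.86 ± 0.146 FPKM (-0.67 ± 0.11 SE, adjusted p = 0.0441). With the replicate number as a block, the 2 genes called in that comparison were both higher in curcumin, so Mylip lost its call. Among carriers, the prostaglandin transporter Slco2a1 fell in AOM/DSS from 53.7 ± 16.9 to 24.7 ± 0.685 (-1.04 ± 0.22 SE, adjusted p = 0.0424), with 4 libraries a group. The peptide transporter Slc15a1 was at 139 ± 27.2, 45.1 ± 12.7 and 97.8 ± 13.9 FPKM in the 3 groups. It fell in AOM/DSS against control (-1.63 ± 0.20 SE, adjusted p = 0.00274) and rose in curcumin against AOM/DSS (1.13 ± 0.20 SE, adjusted p = 0.017). Calls of related genes were not followed gene by gene under the alternatives.

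The ABC proteins with other symbols did not pass. Tap1 and Tap2, the peptide pump that loads MHC class I, were at 9.77 ± 7.41 and 19.1 ± 9.44 FPKM in control, 13.4 ± 2.35 and 19.8 ± 2.81 in AOM/DSS and 9.82 ± 1.77 and 19 ± 7.01 in curcumin. For AOM/DSS minus control Tap1 gave 0.63, adjusted p = 0.454 and Tap2 0.15, adjusted p = 0.868, by limma. Cftr, the chloride channel, was at 20.6 ± 5.09, 22.1 ± 7.86 and 19.5 ± 3.97 FPKM in the same order (0.06, adjusted p = 0.944 for AOM/DSS minus control). Partners of the peroxisomal members (0 of 10 tested), of the mitochondrial members (0 of 11) and of Abce1 and the F members (0 of 8) had no call in any comparison by limma. Over all tested genes, 1.27% were called for AOM/DSS against control and 0.141% for curcumin against control. For curcumin against AOM/DSS, 0.73% were called higher and 0.348% lower. At these shares, 0 calls in lists so short cannot set their genes apart from others.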

How the data were processed

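RNA-seq tables of 12 libraries were used, 1 per library. The authors deposited FPKM for 24391 gene symbols. Per the submitters' processing notes, which give no role or order, the build was mm9 and the tools were featureCounts 1.5.1, TopHat2 2.1.1, R 3.4.0, Picard, DESeq2 1.14.1 and Bowtie2 2.2.6. The annotation, strand setting and gene filters are not given in the sources used here. FPKM of all 19233 genes above 0 were whole multiples of a step per gene and library (tolerance 0.001), which gave read totals. The test was limma 3.58.1 under R 4.3.3 on log2(FPKM + 1), with a mean per group, an intensity trend, 9 residual degrees of freedom and Benjamini-Hochberg adjustment (threshold 0.05). A filter of 1 FPKM in at least 4 libraries kept 12052 genes. Fold changes on this scale understate the change of low genes. The class of a library is the sign of the correlation, over genes, between GC content (matched for 99.3% of tested genes) and the library's deviations from the gene means.

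The members, role lists, marker lists and related lists were chosen with earlier results of these data known. By rule, values in every library are given for members past the threshold, the 6 with the highest mean, the 2 per role with the largest difference, and Abcb1a, Abcb1b, Abcg2, Abcc2, Abcc3, Abca1, Abcg1, Abcg5 and Abcg8. Abcc1, Abca2 and Abcb4 were added after their values were seen. Of the related genes, those past the threshold and Tap1, Tap2, Cftr, Nr1h3 and Nr1i2 are named. Slc51a, Slc51b and Slc10a2 were added after their values were seen. Values of 2 tested members are not reported here, though the counts over members include them.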

Additional observations from a re-analysis of the deposited data

Results flagged for a closer look

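In 4 of the 87 groups of 4 libraries looked at (the tested members and Abcc2), 1 library stood apart from the other 3, its gap being over 0.829 of the range of the group. Chance flags about 1 group in 20. All 4 were in AOM/DSS. Abcb6 was at 16.1 FPKM in AOM/DSS replicate 1, against 27.3 to 28.9 in the others. Abcc3 was at 92.7 FPKM in AOM/DSS replicate 2, against 62.7 to 67.3. Abcf3 was at 19 FPKM in AOM/DSS replicate 0, against 15.4 to 15.9. Abcc2 was at 2.06 FPKM in AOM/DSS replicate 3, against 0.0567 to 0.178.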

How the results depend on the processing

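The 27 alternatives changed the pseudocount, filter, scaling, trend, weights, groups fitted, replicate block, GC handling, count model (voom) or left out 1 library. The 20 fold changes of members followed under them kept their sign. These were all those of Abcb1a and Abcb1b, and those of any tested member at an unadjusted p below 0.05 or with separated libraries. Those of Abcc3 and Abcg2 in the curcumin comparisons were also among them. They were picked largely for their values in these same data. Alternatives that leave the group means as they are cannot change a sign, so the kept signs say little. Over all 28 members and 3 comparisons, 35 of 84 fold changes took the other sign in at least 1 alternative. Where all 28 were tested, the number of members higher in mean ran from 9 to 14 in AOM/DSS minus control. It ran from 15 to 21 in curcumin minus AOM/DSS and 14 to 20 in curcumin minus control. Abca12, Abcb9 and Abcg1 gave no value with the filter of 5 FPKM. The counts of members given next are of those called at an adjusted p below 0.05. The number of members higher in curcumin than in AOM/DSS was 2 in 20 alternatives, 1 (Abcb1a) with no filter, 0 in the GC-rich and 0 in the AT-rich libraries alone, and 1 to 2 with 1 library left out. Abcb1a ranged from 1.10 to 1.79 there, with an adjusted p of at most 0.0461 with any library left out. The number lower in AOM/DSS than in control was 1 (Abcb1a) with library weights, 0 to 1 with 1 library left out and 0 otherwise. With the replicate number as a block, no member's call changed: 2 members were higher in curcumin than in AOM/DSS (Abcb1a, adjusted p = 0.0301, and Abcb1b, adjusted p = 0.0468). The labels do not say whether equal numbers pair libraries. In their deviations from the group mean of each gene, same-numbered libraries correlated by over 0.1 in 6 of 12 pairs (-0.333 to 0.456). Among them were replicates 1 to 3 of curcumin and AOM/DSS (0.35, 0.301 and 0.357) but not replicate 0 (0.036). The own number was the best match, out of 4 libraries, in 4 of the 12 pairs. In AOM/DSS and in curcumin, replicates 0 and 1 were GC-rich and 2 and 3 AT-rich, so replicate number goes with class there.

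Counts over all genes moved more. For AOM/DSS against control the 153 became 82 with the block, 288 with weights, 54 with only the groups compared, 238 with the GC class as covariate, 7 in GC-rich and 4 in AT-rich libraries. For curcumin against AOM/DSS the 130 became 86, 468, 85, 272, 8 and 1, and 231 with the GC trend removed. For curcumin against control the 17 became 2 with the block, 491 with weights, 7 with no filter, 11 with a pseudocount of 0.1, 27 with voom, 40 with the covariate, 29 with the GC trend removed and 0 in either class, and the number higher was 11 of 17, 7 of 13 with a common sum and 12 of 23 with quantile scaling. With 1 library left out the 3 counts ran from 53 to 200, 48 to 152 and 4 to 35. The cause of these shifts was not tested. Low depth limits Abcc2 and the other members below the filter.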
